A study of Homo sapiens with 24 samples.

Results

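The genes described here are 40 that encode lysosomal proteins: acid hydrolases, proteins of the lysosomal membrane, subunits of the proton pump and the transcription factor TFEB. They were chosen by symbol and matched to Entrez gene identifiers, of which each library's count table held 25702. All 40 were found, and 39 passed the filter on low counts. The cells were IMR90, a line of human diploid lung fibroblasts. Every sample carried a retroviral fusion of the oestrogen receptor with oncogenic RAS, ER:HRAS(G12V), together with a second retroviral construct, which was either the empty MSCV vector or an MSCV miR30 hairpin against HMGA1, a chromatin architectural protein. The 4 groups of 6 biological replicates were untreated vector cells (growing), untreated hairpin cells (shHMGA1), vector cells given 4-hydroxytamoxifen (4OHT) for 6 days to switch on RAS and bring about RAS-induced senescence (RIS), and hairpin cells given the same treatment (RIS+shHMGA1). The labels name 1 hairpin, so an effect of the loss of HMGA1 and an effect particular to that hairpin cannot be told apart.

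Lysosomes are acidic organelles that break down proteins, glycans and lipids delivered by endocytosis and autophagy. The V-ATPase, a multi-subunit proton pump, keeps them acidic, cathepsins cut proteins, glycosidases trim sugars, and membrane proteins such as LAMP1 protect the organelle and export its products. Senescent cells are commonly recognised by β-galactosidase activity measured above the pH optimum of the enzyme, and this activity is encoded by GLB1, the gene of the lysosomal β-galactosidase. TFEB, a basic helix-loop-helix factor of the MiT/TFE family, activates many lysosomal genes through a short palindrome known as the CLEAR element.

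The core of this element is shown for the members that carried it, because TFEB was itself among the genes that changed. RefSeq promoter windows, from 250 bases before to 50 bases after an annotated start, were at hand for 27 of the 40 genes. The 8-letter palindrome TCACGTGA was found in 5 of these 27, namely LAMP1, ATP6V0D1, GAA, MCOLN1 and CTSA, and in 2.295% of the 10412 tested genes with a window. By window it was in 12.5% of the 40 windows of these genes and in 0.9796% of all 35116. The inner 6 letters, CACGTG, which the longer motif contains, were in 9 of the 27 (the same 5 with CD63, CTSD, CTSF and NEU1) and in 12.59% of tested genes. Both motifs read the same on either strand. The sites below run 5′ to 3′ on the strand of the gene, with TCACGTGA in capitals, and their coordinates are those of GRCh38.p14, whereas the counts were made on hg19.
LAMP1: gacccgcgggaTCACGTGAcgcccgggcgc
ATP6V0D1: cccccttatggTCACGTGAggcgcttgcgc
GAA: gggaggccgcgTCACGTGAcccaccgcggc
MCOLN1: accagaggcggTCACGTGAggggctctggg
CTSA: ggcgccggagtTCACGTGActcgtacacat
The LAMP1 site lay at chr13:113297199-113297228 on the plus strand, with its centre 25 bases before the start. In ATP6V0D1 it lay at chr16:67481199-67481228 on the minus strand, 56 bases before the start. The GAA site was at chr17:80101493-80101522 (plus strand, 73 bases before the start), the MCOLN1 site at chr19:7522571-7522600 (plus strand, 38 bases) and the CTSA site at chr20:45891298-45891327 (plus strand, 22 bases). LAMP1, GAA and MCOLN1 each held 2 matches in the window, of which the one farther upstream is printed. A match of letters is a description of the window and no measurement of binding.

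Total counts lay between 8698070 and 23103424 per sample. HMGA1, the target of the hairpin, lay between 638 and 860 CPM (counts scaled to TMM-normalised library sizes) in the 12 vector samples and between 54.3 and 261.5 CPM in the 12 hairpin samples. Growing replicate 4 and RIS replicate 2 stood apart from their groups. On the first principal component of all tested genes the growing replicate 4 was at 77.3, against −84.3 to −57.2 for the other growing samples, and RIS replicate 2 was at −77.1, against 16.8 to 62.1 for the other RIS samples. The RIS+shHMGA1 samples were at 52.5 to 84.1, a range that holds growing replicate 4. The tested lysosomal genes are part of that component. Their values, set against the growing and RIS means alone, are therefore a description and no separate support. The share over all genes that differ by as much was not computed. Of the 16 members whose means in the other growing and other RIS samples differed by over 0.58 on the log2 scale, growing replicate 4 lay nearer the RIS mean for 16 and RIS replicate 2 nearer the growing mean for 16. They were kept in their labelled groups, and counts of calls and changes of the genes described in comparisons with growing or RIS samples are given both with all samples and without these libraries. The comparison of RIS+shHMGA1 with shHMGA1 contains neither of them, although all groups share an estimate of the spread. The fibroblast genes COL1A1, COL1A2, COL3A1, PDGFRB, THY1, VIM, DCN and LUM were all tested, whereas 5 epithelial markers summed to at most 1.35 CPM. With 4OHT, 7 of these 8 fibroblast genes fell in hairpin cells, and their sum went from between 14050 and 20020 CPM to between 4431 and 5810 CPM. TEK, the 1 endothelial marker of 5 that was tested, fell as well. MKI67, a proliferation gene, had a log2 fold change of −4.33 and IL1A, an inflammatory cytokine gene, 3.69. The part of these shifts in the results below was not tested.

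In hairpin cells, 4OHT moved 16 of the 39 tested lysosomal genes past the thresholds, in both directions. Genes were called at a Benjamini-Hochberg adjusted p under 0.01 in edgeR's quasi-likelihood test over 13356 genes and an absolute log2 fold change over 0.58. CTSS, CTSH, CTSL, NPC2, PSAP, ATP6V1H, ATP6V0D1, CD63, HEXA and CTNS rose, 10 in all, against 19.6% of all tested genes called higher. CTSC, TFEB, GUSB, SMPD1, CTSZ and SCARB2 fell, 6 in all, against 19.5% called lower. By role, 3 of the 13 cathepsins and related peptidases rose and 2 fell, 1 of 9 tested glycosidases rose and 1 fell, 2 of 7 lipid-handling genes rose and 1 fell, 2 of 6 membrane protein genes rose and 1 fell, and 2 of 3 V-ATPase genes rose. The median log2 fold change was 0.04 over the 39 genes and −0.02 over all tested genes. The 6 RIS+shHMGA1 and 6 shHMGA1 samples did not overlap for 18 of the 39 genes, and for 43.4% of all genes. Both the called share and the share without overlap were thus near those of all genes. Without replicate numbers 5 and 6 in every group, 0 members and 0 of all genes were called. When growing replicate 4 and RIS replicate 2 were left out in addition, 9 members were called higher and 10 lower, against 24% and 23.7% of all genes.

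**Figure D1:**
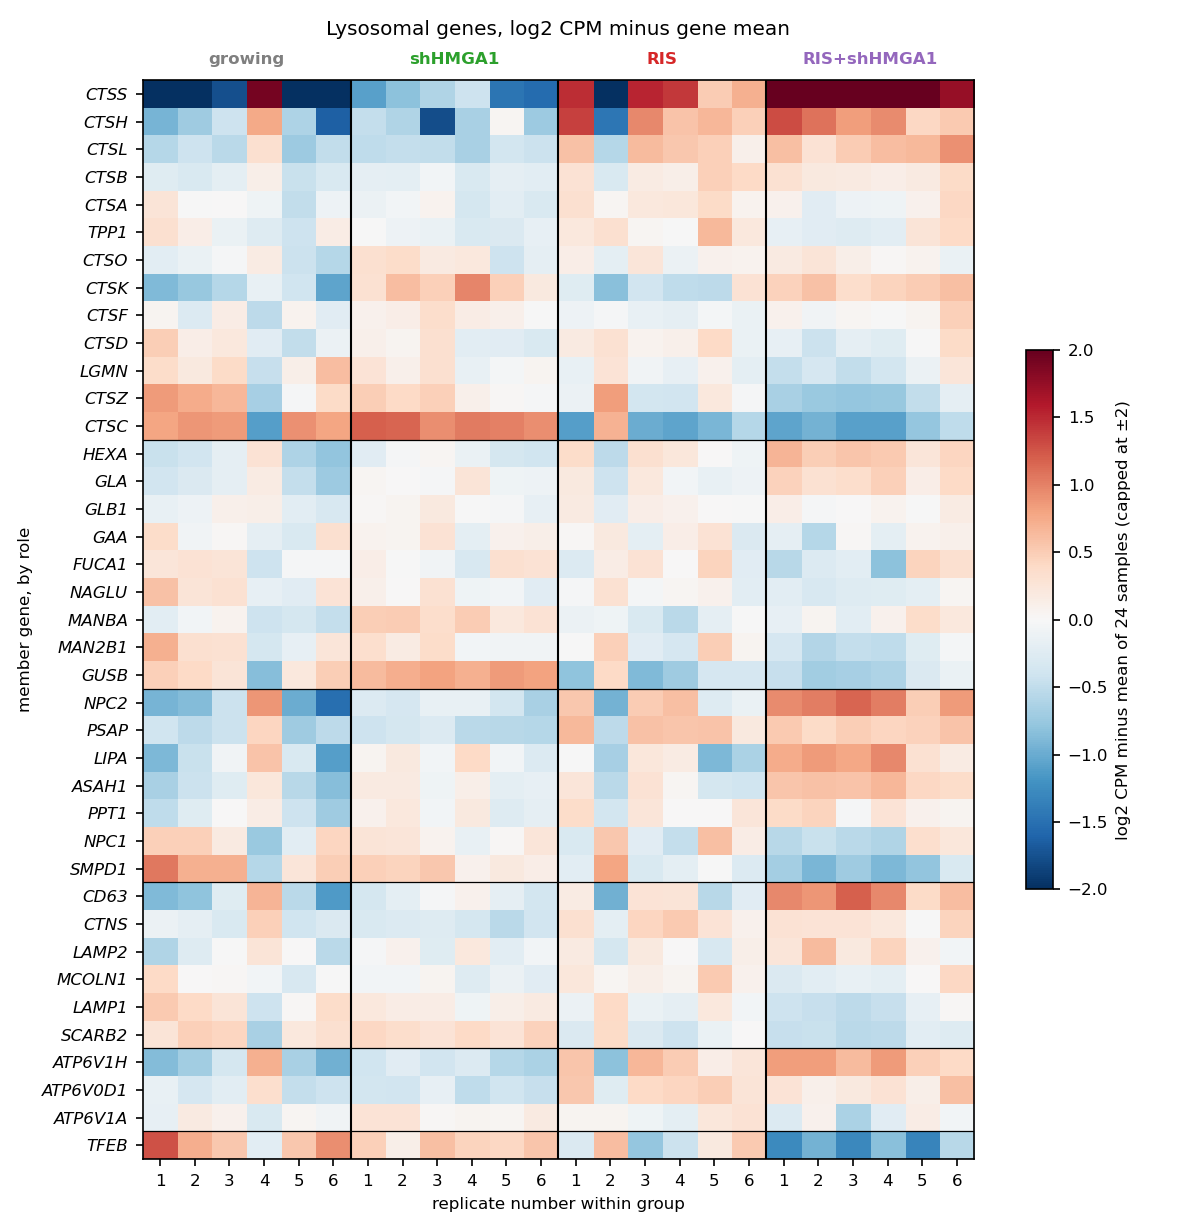
Log2 CPM minus the gene's mean over the 24 samples, for each tested lysosomal gene (rows, by role) in each sample (columns, by group and replicate number). The column of growing replicate 4 resembles the columns of 4OHT-treated cells and that of RIS replicate 2 the growing columns, most visibly for CTSS, CTSC and GUSB. For CTSS, growing replicate 4 was above every RIS sample.

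The vector cells gave largely the same genes when the departing libraries were set aside. With all samples, 0 of the 39 members and 0% of all genes were called between RIS and growing by edgeR. At an unadjusted p under 0.05, 15 of the 39 passed, against 33% of all genes. DESeq2 called 2 members higher and 1 lower, against 2.04% and 4.17% of all genes. Without growing replicate 4 and RIS replicate 2, 11 members rose, against 19.3% of all genes called higher, and 5 fell, against 20.5% called lower. Of the genes called there and in RIS+shHMGA1 against shHMGA1, 2 comparisons that share no sample, 15 of the 39 were in common, and all 15 had the same direction. Of all tested genes 32.6% were called in both with the same direction and 0.00749% with opposite directions, so these 15 were near that share. CTSB alone was called only in vector cells and SCARB2 alone only in hairpin cells. Against growing, RIS+shHMGA1 had 12 members higher and 6 lower, where 22% of all genes were called higher and 23.9% lower, and 22 members in all were called without the departing libraries, against 56.8% of all genes. For the interaction, the difference between the 4OHT responses of hairpin and vector cells, 0 members were called by edgeR or DESeq2, with 6 of 39 at an unadjusted p under 0.05, against 10.3% of all genes. Without the departing libraries 0 members were called by edgeR, and 1 of 39 was at an unadjusted p under 0.05, against 509 of 13356 genes.

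**Figure D2:**
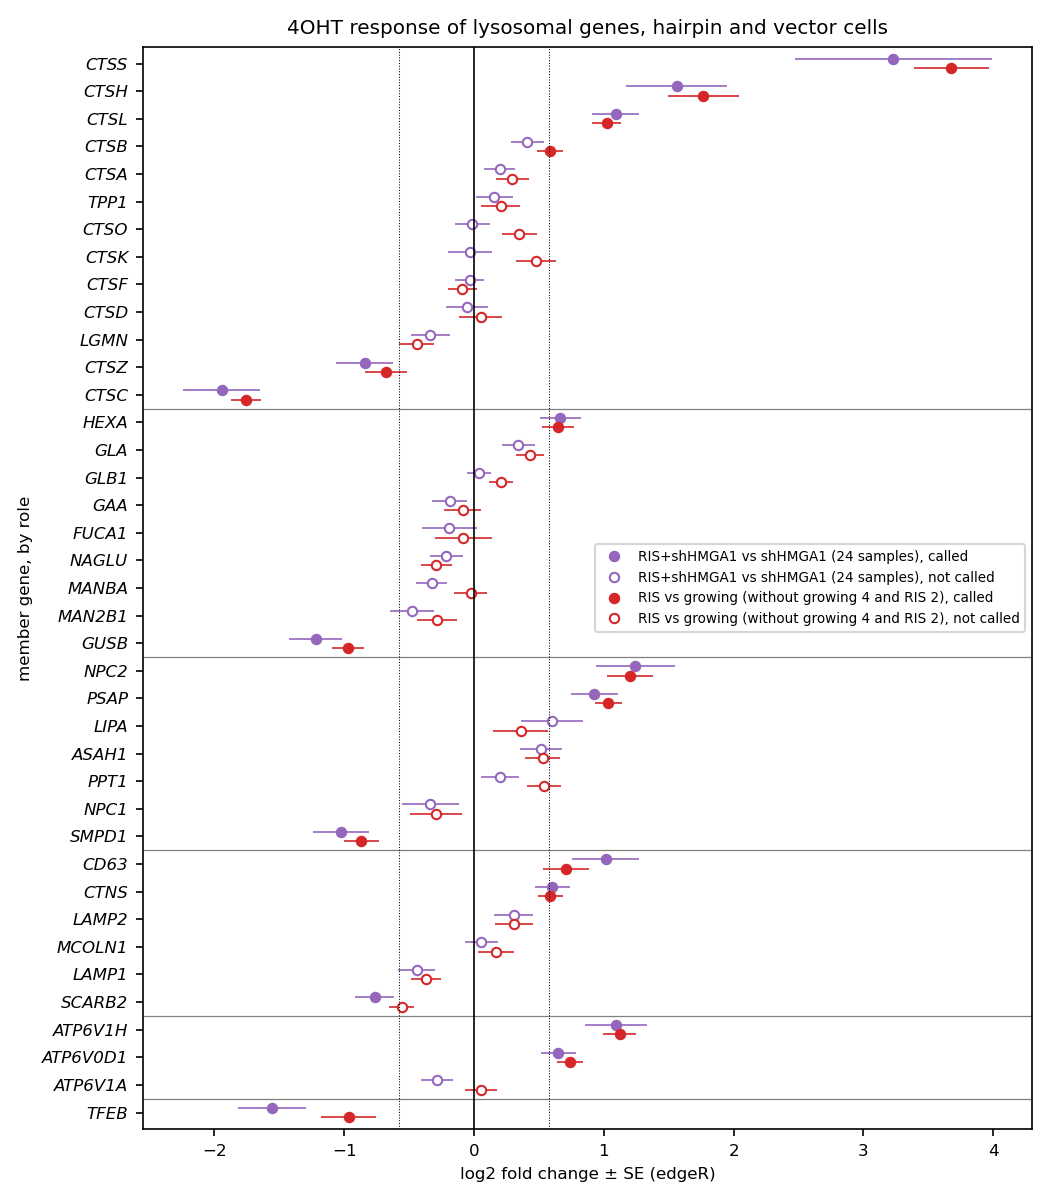
Log2 fold change with its standard error (x axis) for each tested lysosomal gene (y axis, by role), for RIS+shHMGA1 against shHMGA1 with all samples and for RIS against growing without growing replicate 4 and RIS replicate 2. Filled points are called, and dotted lines mark the threshold of fold. CTSS lies farthest to the right at 3.23 in hairpin cells and CTSC farthest to the left at −1.94, and GLB1 lies at 0.04.

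CTSS had the largest change of the tested members between RIS+shHMGA1 and shHMGA1. It encodes cathepsin S, an endopeptidase active up to neutral pH and best known for cutting the invariant chain in antigen-presenting cells, and it lies on chromosome 1 from 150702555 to 150738433 (GRCh37). In shHMGA1 samples its lowest, median and highest levels were 76.2, 115 and 167.5 CPM. In RIS+shHMGA1 they were 747, 1191 and 1334 CPM, so the groups were far apart. The log2 fold change was 3.23 ± 0.76 (SE), or 9.37-fold higher, with an adjusted p of 0.0014 in edgeR. Growing samples had 21.2, 39.4 and 841 CPM and RIS samples 45.1, 479 and 638 CPM. The overlap came from the departing libraries: the other growing samples reached no more than 65.7 CPM, and the other RIS samples no less than 316 CPM. With all samples the log2 fold change in vector cells was 1.31 ± 0.71 (edgeR adjusted p = 0.2), and without them CTSS rose by 3.68 ± 0.29 (1.3e-10).

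As CTSS is abundant in macrophages, markers of that cell type were read beside it. The 8 macrophage markers summed to 1.01 to 2.46 CPM in shHMGA1 and 2.08 to 3.68 CPM in RIS+shHMGA1, and to 1.13 to 2.83 CPM in growing and 1.69 to 3.69 CPM in RIS samples. Of the 8, CSF1R alone passed the filter. It lay at 0.589 to 1.53 CPM in shHMGA1 and at 1.20 to 2.66 CPM in RIS+shHMGA1. Its log2 fold change there was 0.98, not called, though called in the fit without the departing libraries. In vector cells it was 0.75 with all samples, not called, and 1.09 without the departing libraries, where it was called higher. Of the untested markers, TYROBP was listed at 0 in all samples, and SPI1 and LYZ had at most 1 count in any sample. PTPRC reached at most 0.307 CPM in shHMGA1 and 0.688 CPM in RIS+shHMGA1, and CD14 at most 1.23 and 0.688 CPM.

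Cathepsins L and H, an endopeptidase and an aminopeptidase, rose with CTSS. CTSL lay at 102 to 124 CPM in shHMGA1 and at 194 to 298 CPM in RIS+shHMGA1, without overlap. Its log2 fold change was 1.09 ± 0.18 (edgeR adjusted p = 0.00022), and in vector cells 0.71 ± 0.18 with all samples and 1.02 ± 0.11 without the departing libraries. CTSH changed by 1.56 ± 0.39 (edgeR adjusted p = 0.0021), from a median of 1.56 CPM to 4.78 CPM, and in vector cells by 1.77 ± 0.27 without the departing libraries, where all samples gave 1.16 ± 0.39. CTSH had the smallest values of the called cathepsins, 7 to 64 counts per sample, and its call was lost without replicate number 1 or 3.

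CTSC had the largest fall in the same comparison. It encodes cathepsin C, a dipeptidyl peptidase that activates serine proteases of immune cell granules, on chromosome 11 from 87998237 to 88092852 (GRCh37). The shHMGA1 samples had a lowest level of 266.5, a median of 285 and a highest level of 320.1 CPM. In RIS+shHMGA1 these were 65.5, 69.9 and 97.8 CPM. All treated samples were below all untreated ones, with a log2 fold change of −1.94 ± 0.30 (edgeR adjusted p = 0.00019). In vector cells, growing samples had 65.3, 247 and 263 CPM and RIS samples 65.2, 72.2 and 225.5 CPM. The lowest growing value and the highest RIS value belonged to the departing libraries, and the log2 fold change was −1.15 ± 0.29 with all samples (edgeR adjusted p = 0.018) and −1.76 ± 0.12 without these (7.6e-12).

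CTSZ, a carboxypeptidase, fell by 0.84 on the log2 scale in hairpin cells, from a range of 136 to 194.5 CPM to a range of 80.7 to 122 CPM, and by 0.68 in vector cells without the departing libraries, where all samples gave −0.32. The call in hairpin cells was lost without replicate number 1 or 3. CTSB, by length the most abundant cathepsin gene, was called only in the vector cells without the departing libraries, where its log2 fold change was 0.59 ± 0.10, just over the threshold (edgeR adjusted p = 2.2e-05), and 0.43 ± 0.12 with all samples. In hairpin cells it was 0.41 ± 0.12, under the threshold of fold, although the groups did not overlap (1648 to 1969 CPM against 2243 to 2669 CPM). The interaction for CTSB in the same fit was −0.18, with an adjusted p of 0.99. The other 7 peptidase genes without a call in hairpin cells, CTSA, CTSD, CTSF, CTSK, CTSO, LGMN and TPP1, had log2 fold changes between −0.34 for LGMN and 0.20 for CTSA.

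GLB1, the source of senescence-associated β-galactosidase activity, was not called in any comparison. It lay at 102, 116.5 and 137 CPM (lowest, median, highest) in growing samples, at 114, 128 and 145 CPM in shHMGA1, at 108.5, 131 and 144 CPM in RIS, and at 125, 130.1 and 142 CPM in RIS+shHMGA1. The 4 ranges overlapped. In hairpin cells its log2 fold change with 4OHT was 0.04 ± 0.09 (edgeR adjusted p = 0.71), and in vector cells 0.12 ± 0.09 (0.37). Without the departing libraries the vector cells gave 0.21 ± 0.09, or 1.16-fold, with an edgeR adjusted p of 0.045, which is above the threshold used. The gene TMPPE lies within the span of GLB1 (chromosome 3, 33038101 to 33138694, GRCh37), and how reads of overlapping genes were counted is not given in the sources used here. The same limit holds for NPC2, CD63, SCARB2 and CTNS, which were called in hairpin cells, and for CTSA, NPC1 and PPT1. Each of these overlaps 1 other gene.

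Among the other glycosidases, GUSB and HEXA moved in opposite directions. GUSB, the β-glucuronidase, lay at 38.3 to 44.6 CPM in shHMGA1 and at 15.1 to 22.6 CPM in RIS+shHMGA1. That was a log2 fold change of −1.22 ± 0.20 (edgeR adjusted p = 0.00022), and in vector cells −0.61 ± 0.20 with all samples and −0.97 ± 0.12 without the departing libraries. GUSB has near-identical pseudogenes, so its counts may depend on how shared reads were treated. HEXA, the α subunit of β-hexosaminidase, rose by 0.66 ± 0.16 in hairpin cells (edgeR adjusted p = 0.0016), with untreated samples between 103.5 and 141 CPM and treated samples between 162 and 219 CPM. In vector cells HEXA had 0.39 with all samples and rose by 0.64 without the departing libraries. GAA, GLA, FUCA1, MANBA, MAN2B1 and NAGLU, which with GLB1 were the tested glycosidases that were not called, had log2 fold changes from −0.48 for MAN2B1 to 0.34 for GLA. NEU1, the neuraminidase, was listed at 0 in all 24 samples. Of the 34 protein-coding genes within 200 kb on either side of it, 32 were likewise listed at 0 in all samples, so nothing can be said of its level here.

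Genes of sphingolipid and cholesterol handling divided in the same way. NPC2, which passes cholesterol to the membrane protein NPC1, had 77.6, 99.1 and 110 CPM (lowest, median, highest) in shHMGA1 and 173, 241 and 273 CPM in RIS+shHMGA1. Its log2 fold change was 1.24 ± 0.30 (edgeR adjusted p = 0.0018), a call lost without replicate number 3. PSAP, the precursor of the saposins that assist sphingolipid hydrolases, rose by 0.92 ± 0.18 (edgeR adjusted p = 0.00042), from a median of 711 to one of 1380 CPM. SMPD1, the acid sphingomyelinase, fell from a range of 83.2 to 114 CPM to one of 41.5 to 63.4 CPM, a log2 fold change of −1.02 ± 0.21 (edgeR adjusted p = 0.00061). None of these 3 genes overlapped between the groups. In vector cells without the departing libraries the changes were 1.20 for NPC2, 1.03 for PSAP and −0.87 for SMPD1, each called, and with all samples 0.57, 0.70 and −0.50, none called. NPC1 itself had a log2 fold change of −0.34 in hairpin cells, with shHMGA1 samples at 71.2 to 94.6 CPM. Its RIS+shHMGA1 replicates 1 to 4 lay at 52.2 to 57.8 CPM, and replicates 5 and 6 at 99.9 and 92.2 CPM. PPT1, a thioesterase that removes palmitate from proteins, had 0.20. ASAH1, the acid ceramidase, had 0.52, and LIPA, the acid lipase, 0.60 with an edgeR adjusted p of 0.034. None of these 4 was called there. LIPA also shares its annotated span with 5 IFIT genes.

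Membrane proteins were no more uniform. CD63, a tetraspanin of late endosomes and exosomes, rose from 1158, 1314 and 1587 CPM (lowest, median, highest) in shHMGA1 to 1947, 2824 and 3413 CPM in RIS+shHMGA1. The log2 fold change was 1.01 ± 0.26 (edgeR adjusted p = 0.0024), and in vector cells 0.24 ± 0.26 with all samples and 0.71 ± 0.18 without the departing libraries. The call in hairpin cells was lost without replicate number 1 or 3. CTNS, the cystine transporter, rose by 0.60 in hairpin cells and by 0.59 in vector cells without the departing libraries, where all samples gave 0.365. SCARB2, the receptor that carries β-glucocerebrosidase to lysosomes, fell from between 249 and 283 CPM in shHMGA1 to between 142 and 178 CPM in RIS+shHMGA1, a log2 fold change of −0.77 ± 0.15 (edgeR adjusted p = 0.00042). In vector cells without the departing libraries SCARB2 had −0.56 ± 0.10, just within the threshold of fold (−0.31 with all samples), and the interaction in that fit was −0.21 (adjusted p = 0.99).

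LAMP1, whose glycoprotein coats the inner face of the lysosomal membrane and is a customary marker of the organelle, was not called in the main fit. It had 268, 315 and 328 CPM in shHMGA1 and 198.5, 209.8 and 288 CPM in RIS+shHMGA1, ranges that overlapped. Only RIS+shHMGA1 replicate 6, at 288 CPM, exceeded the lowest shHMGA1 sample. RIS+shHMGA1 replicates 1 to 4 lay at 198.5 to 212.6 CPM and replicate 5 at 255 CPM. Of 15 alternative fits 1 called LAMP1, with log2 fold changes from −0.598 to −0.399. The log2 fold change was −0.44 ± 0.14 (edgeR adjusted p = 0.011), and in vector cells −0.19 with all samples and −0.37 without the departing libraries. LAMP2 had 0.31 and the calcium channel gene MCOLN1 0.06. Of the 5 genes whose TCACGTGA sites are printed above, ATP6V0D1 was called in hairpin cells, whereas CTSA, GAA, LAMP1 and MCOLN1 were not, with log2 fold changes of 0.20, −0.19, −0.44 and 0.06.

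Of the V-ATPase genes most, but not all, were called higher with 4OHT in hairpin cells. Among the 40 genes, ATP6V1H, a regulatory subunit of the cytosolic V1 part, lay at 66.5 to 87.6 CPM in shHMGA1 and at 136 to 186 CPM in RIS+shHMGA1. It rose by 1.09 ± 0.24 (edgeR adjusted p = 0.00094). ATP6V0D1, which joins V1 to the membrane part V0, rose by 0.65 ± 0.14 (edgeR adjusted p = 0.00073), with shHMGA1 samples between 95.5 and 121 CPM and RIS+shHMGA1 samples between 145 and 206 CPM. In vector cells ATP6V1H had 0.63 ± 0.24 and ATP6V0D1 0.51 ± 0.14 with all samples, and without the departing libraries they rose by 1.12 ± 0.13 and 0.74 ± 0.10. ATP6V1A, the catalytic subunit, had −0.28 ± 0.12 and was not called. In a list of 15 other pump genes, 14 were tested. In hairpin cells 11 rose and 0 fell, with a median log2 fold change of 1.31, against 19.6% of all genes called higher. Vector cells without the departing libraries gave the same numbers with a median of 1.13, against 19.3% of all genes called higher. With all samples the vector cells had 0 called and a median of 0.46. The largest called changes in that list were ATP6V0D2 (3.44 ± 0.62), ATP6V1G1 (1.92 ± 0.45) and ATP6V1E1 (1.70 ± 0.37). ATP6V0D2 lay between 1.18 and 2.18 CPM in shHMGA1 and between 17.1 and 20.7 CPM in RIS+shHMGA1. ATP6V1G1 lay between 199 and 349 CPM and between 642 and 1276 CPM in the same groups. ATP6V0A1, ATP6V0A2 and ATP6AP1 were not called, at 0.24, −0.33 and −0.37.

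**Figure D3:**
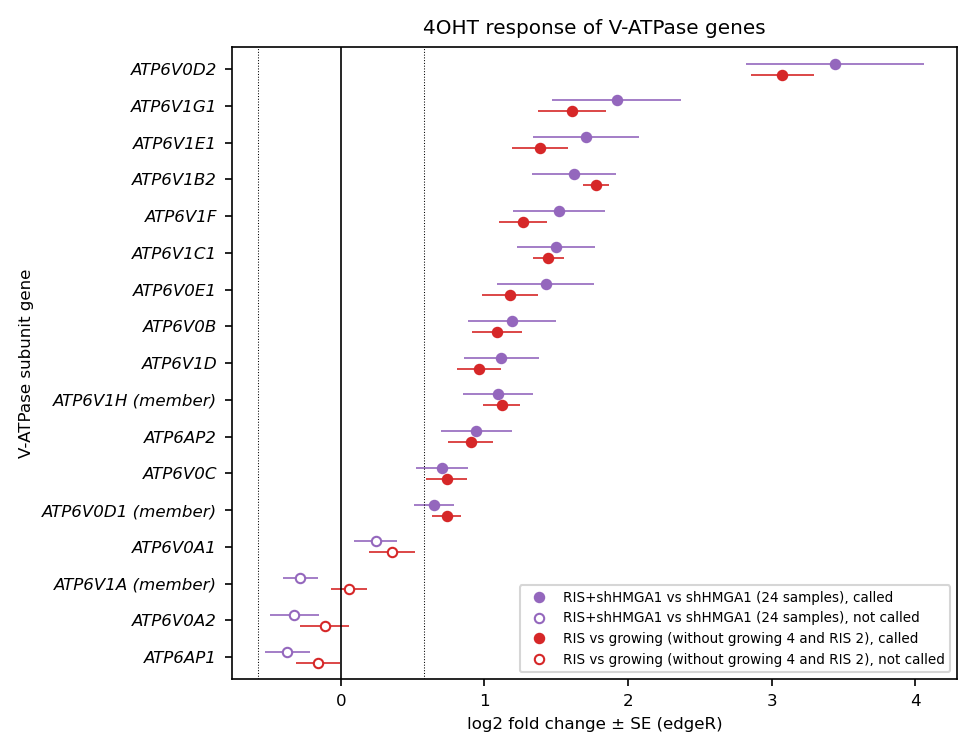
Log2 fold change with its standard error (x axis) for the tested V-ATPase genes (y axis, with the 3 that belong to the 40 genes marked as members), in RIS+shHMGA1 against shHMGA1 and in RIS against growing without growing replicate 4 and RIS replicate 2. ATP6V0D2 is farthest to the right at 3.44 in hairpin cells, and ATP6V1A, ATP6V0A1, ATP6V0A2 and ATP6AP1, none of them called, lie between −0.37 and 0.24.

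TFEB, the regulator of lysosomal genes, fell. It lies on chromosome 6 from 41651716 to 41703997 (GRCh37) and its mRNA was scarce, with 9 to 190 counts per sample. Its lowest, median and highest levels were 3.28, 4.18 and 4.65 CPM in shHMGA1 and 1.102, 1.31 and 1.98 CPM in RIS+shHMGA1. The groups did not overlap, and the log2 fold change was −1.56 ± 0.26 (edgeR adjusted p = 0.00022). In vector cells without the departing libraries growing samples lay between 4.42 and 7.53 CPM and RIS samples between 1.68 and 4.38 CPM, a log2 fold change of −0.97 ± 0.21 (edgeR adjusted p = 0.00041). With all samples it was −0.68 ± 0.24 (0.053).

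A further list held related factors, the Rag, Ragulator and folliculin proteins that hold TFEB at the lysosome, and MTOR and RPTOR. Of its 13 tested genes, 7 rose and 1 fell in hairpin cells. Among all tested genes 19.6% were called higher and 19.5% lower in that comparison. Vector cells had 0 called with all samples, and 7 higher and 2 lower without the departing libraries, against 19.3% and 20.5% of all genes. MTOR and RPTOR, not called in hairpin cells, had medians of 51.35 and 39.45 CPM in shHMGA1 and 31.8 and 28.05 CPM in RIS+shHMGA1. LAMTOR3, a Ragulator subunit, rose by 1.57 ± 0.35, and RRAGD, a Rag GTPase, went from at most 0.175 CPM in shHMGA1 to between 2.31 and 5.33 CPM in RIS+shHMGA1, where it was called. MITF, a relative of TFEB, fell by 1.53 on the log2 scale, and TFE3 had −0.48 and was not called.

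The hairpin moved few lysosomal genes, and CTSK was called in both comparisons that tested it. CTSK encodes cathepsin K, the collagen-degrading protease of osteoclasts, and neighbours CTSS on chromosome 1 (150767356 to 150782053, GRCh37) with 0 counted genes between them. Growing samples had 63.5, 84.0 and 120 CPM (lowest, median, highest) and shHMGA1 samples 152, 184 and 260 CPM. RIS samples had 73.9, 97.7 and 162 CPM and RIS+shHMGA1 samples 169, 185 and 202 CPM. In each pair every hairpin sample was above every vector sample, also with the departing libraries kept in. The log2 fold change was 1.13 ± 0.17 in untreated cells (edgeR adjusted p = 0.0013) and 0.82 ± 0.17 in treated cells (0.0055), and without the departing libraries 1.24 ± 0.15 (1.8e-05) and 0.74 ± 0.15 (0.0015). With all libraries, either call was lost when replicate number 1, 2, 3 or 5 was left out, at adjusted p values up to 0.025 untreated and 0.052 treated, while the log2 fold changes stayed at 0.72 or more. Between RIS+shHMGA1 and shHMGA1 its log2 fold change was −0.03.

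In untreated cells CTSK and MANBA were the 2 members higher with the hairpin, against 0.135% of all genes called higher, and 0 were lower, against 0.135%. MANBA, the β-mannosidase, had 78.4, 90.5 and 115 CPM in growing and 126, 147 and 156 CPM in shHMGA1 samples, without overlap, and a log2 fold change of 0.62 ± 0.12 (edgeR adjusted p = 0.0089), which lost its call whichever single replicate number was left out. Without the departing libraries it was 0.59 ± 0.12 (edgeR adjusted p = 0.0033). Without the departing libraries 3 members were higher, against 1.23% of all genes, and 0 lower, against 1.39%. The addition was CTSS, at 1.56 ± 0.26 (edgeR adjusted p = 0.00056), where the other growing samples lay at 21.2 to 65.7 CPM and the shHMGA1 samples at 76.2 to 167.5 CPM. With all samples CTSS had −0.56 ± 0.70 in this comparison, so that growing replicate 4, at 841 CPM, turned the direction.

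In treated cells 1 member, CTSK, was higher with the hairpin, against 1.77% of all genes, and 1, TFEB, was lower, against 0.786%. TFEB had a log2 fold change of −1.16 ± 0.27 (edgeR adjusted p = 0.009), with RIS samples between 1.68 and 4.71 CPM and RIS+shHMGA1 samples between 1.102 and 1.98 CPM, ranges that overlapped. This call was lost without replicate number 1, 2, 3, 5 or 6, and the value was −1.01 without the departing libraries and −0.66 without the departing libraries and numbers 5 and 6. Without the departing libraries 5 members were higher, against 10% of all genes, and 1 was lower, against 2.52%. The 5 were CTSK, CTSS (1.11 ± 0.25), CD63 (0.83 ± 0.17), LIPA (0.82 ± 0.20) and NPC2 (0.63 ± 0.17). With all samples the last 4 had 1.35, 0.96, 0.89 and 0.78 and were not called. CTSS was at 747 CPM or more in all RIS+shHMGA1 samples and at 638 CPM or less in all RIS samples, whether or not RIS replicate 2 was included. Growing replicate 4, a vector library that stood apart from its group, had 841 CPM, within the RIS+shHMGA1 range.

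Compared per kilobase of canonical transcript, the median levels in growing samples spanned 0.707 CPM per kb for CTSH to 919 CPM per kb for CD63. CTSB (455) and PSAP (260) followed CD63, and TFEB (2.05) and FUCA1 (1.04) stood with CTSH at the lower end. In RIS+shHMGA1 the median level of CD63 was 2761 and that of CTSS 303 CPM per kb, while TFEB was the lowest at 0.561 CPM per kb. Summed over the 40 genes, the members took 7239 to 8421 CPM in shHMGA1 and 10400 to 12130 CPM in RIS+shHMGA1, without overlap. In vector cells the sums overlapped, at 6321 to 10340 CPM in growing and 6949 to 10310 CPM in RIS samples, and without the departing libraries they were 6321 to 7744 and 9106 to 10309 CPM. In RIS+shHMGA1 samples CD63, CTSB, PSAP and CTSS had the highest median levels, at 2824, 2321, 1380 and 1191 CPM. In these bulk RNA samples more cells with a transcript and more transcript per cell cannot be told apart.

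Lysosomal genes outside the 40 were read from fixed lists. Among all tested genes 19.6% were called higher and 19.5% lower in hairpin cells. In vector cells without the departing libraries the shares were 19.3% and 20.5%. Of 22 tested further hydrolases, 2 rose and 7 fell in hairpin cells, and 4 rose and 5 fell in vector cells without the departing libraries. The falls included ACP2, an acid phosphatase (−1.41 ± 0.28), and MAN2B2, a mannosidase (−1.13 ± 0.24). Of 15 tested further membrane proteins, 2 rose and 3 fell. LAPTM5, a membrane protein known from blood cells, was among those called, at 1.70 to 6.09 CPM in RIS+shHMGA1 against at most 0.337 CPM in shHMGA1. TMEM175, a lysosomal ion channel, had −1.40 ± 0.28 and SIDT2 −1.27 ± 0.29.

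The sorting machinery and the inhibitors of the cathepsins were read in the same way in hairpin cells, where 19.6% of all genes were called higher and 19.5% lower. Of 11 genes for the mannose 6-phosphate and sortilin routes, which bring enzymes to lysosomes, 1 rose and 2 fell. SORT1, encoding sortilin, fell by 1.88 on the log2 scale, from between 70.4 and 150 CPM in shHMGA1 to between 27.9 and 32.7 CPM in RIS+shHMGA1, whereas M6PR, the small mannose 6-phosphate receptor, rose by 0.92 ± 0.18, and GNPTAB, which makes the mannose 6-phosphate tag, had −0.90 ± 0.19 and fell. Of 7 tested cystatins and other cathepsin inhibitors, 5 rose and 0 fell, led by CST4 (3.99 ± 0.74), CST1 (3.44 ± 0.63) and CST2 (3.43 ± 0.57), which are close paralogs whose shared reads may have been split or dropped.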

How the data were processed

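Poly(A) RNA of 24 samples was sequenced from stranded libraries (HiSeq-2500). The authors aligned reads to hg19 with STAR 2.5.0b, removed reads of low mapping quality and adapters with Cutadapt 1.10.0, and deposited raw counts per Entrez gene from Rsubread. The annotation, the version of Rsubread and the strand setting are not given in the sources used here, so reads of overlapping genes and near-identical copies may have been shared or lost. Symbols were taken from a RefSeq table (23696 of 25702 identifiers).

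Groups and replicate numbers came from the sample titles. After a filter on low counts (filterByExpr, group as its factor) 13356 genes remained. They were normalised by TMM and tested with edgeR 4.0.16 (limma 3.58.1, R 4.3.3), fitting the 4 group means without a block to all samples. On the first principal component RIS replicates 5 and 6 were at 16.8 and 22.2, against 56 to 62.1 for replicates 1, 3 and 4. RIS+shHMGA1 replicates 5 and 6 were at 52.5 and 58.2, against 78.5 to 84.1 for the others. In the untreated groups numbers 5 and 6 did not separate in this way. The main fit has no term for this difference and takes it as spread between replicates. Calls required an FDR (Benjamini-Hochberg) below 0.01 together with a log2 fold change beyond 0.58 either way, as in the study's methods. The standard error is the absolute log2 fold change divided by the square root of F. CPM used TMM library sizes, and log2 CPM a prior count of 2. Total counts ranged from 8698070 to 23103424 with a median of 10604084. Counting noise weighs most on the scarcest tested members (CTSH, FUCA1, TFEB), and its share of the spread between replicates was not tested. The code was run on simulated counts with the same dispersion for all genes and no departing libraries. That checks the code and not how well calls hold in these data. Of the 60 within-group pairs of samples none agreed within sampling noise (lowest chi-square per degree of freedom 2.89).

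Members and lists were chosen with earlier results of these data known. Genes named with full values were GLB1, CTSK, TFEB, LAMP1 and CD63, the 6 largest called rises and falls between RIS+shHMGA1 and shHMGA1, all members called for the hairpin or for the interaction, members called in only one of both 4OHT comparisons, and up to 3 genes of each other list. Further genes were named after their values were seen. One gene that the rule would name is not reported here. Alternatives were DESeq2 1.42.0, RLE normalisation, no filter, a replicate block, a fit on the samples of a comparison alone, an FDR of 0.05, and fits without single replicate numbers, without numbers 5 and 6, and without growing replicate 4 and RIS replicate 2. The fit that left out all of the latter together was added after seeing the data. Transcript lengths and gene positions came from GENCODE on GRCh37 and promoters from RefSeq on GRCh38.p14.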

Additional observations from a re-analysis of the deposited data

Results flagged for a closer look

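Within groups of 6 samples, the highest or lowest value was set against the gap to its neighbour, divided by the range of the group, for the 16 genes named by rule. Of 64 groups, 12 passed Dixon's 95% critical value, where about 3.2 would pass by chance. In 6 of these the library was growing replicate 4. It was the highest growing sample for CTSS (0.694), ATP6V1H (0.636) and CTSL (0.699) and the lowest for CTSC (0.941), GUSB (0.795) and SCARB2 (0.763). RIS replicate 2 accounted for 5: it was the lowest RIS sample for CTSS (0.735), CTSH (0.683) and ATP6V1H (0.641) and the highest for CTSC (0.702) and SMPD1 (0.732). In all 11 cases the library lay on the side of the group with the opposite 4OHT label. Most of the 16 genes were named for a large 4OHT change, and these libraries were already known to stand apart. Their flags are therefore no separate evidence of that placement. The remaining case was LAMP1 in shHMGA1 replicate 4, the lowest of its group (0.711). Whether labels, cultures or libraries lie behind these values was not tested.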

How the results depend on the processing

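Of the 16 members called between RIS+shHMGA1 and shHMGA1, fits that left out single replicate numbers called 12 to 16, and the other alternatives 15 to 19, except that 0 were called without replicate numbers 5 and 6, a fit in which 0 of all genes were called as well. Between RIS and growing, where 0 were called, DESeq2 called 3, an FDR under 0.05 called 5, fits without single numbers 0 to 9 (4 without replicate 2 and 9 without replicate 4), the fit without growing replicate 4 and RIS replicate 2 called 16, and 20 when numbers 5 and 6 were also left out. For shHMGA1 against growing (2 called), 1 was called with no filter, 0 on the samples of the comparison alone, 0 without numbers 5 and 6, and 0 to 1 without single numbers. For RIS+shHMGA1 against RIS (2 called), DESeq2 gave 6, no filter 1, the samples of the comparison alone 0, an FDR under 0.05 gave 8, the fit without the departing libraries 6, without numbers 5 and 6 it was 0, without both 4, and without single numbers 0 to 7 (7 without replicate 4). For RIS+shHMGA1 against growing (18 called), the count was 22 without the departing libraries, 0 without numbers 5 and 6, 11 without replicate 1, and at most 21 without another single number. The interaction had 0 throughout, with no fit on the samples of the comparison alone, which are all samples. RLE normalisation changed no count. The share of all genes called moved between fits as well. Without the departing libraries it went from 1.77% higher and 0.786% lower to 10% and 2.52% for RIS+shHMGA1 against RIS. For RIS against growing it went from 0% to 19.3% higher and 20.5% lower. The counts in this section are thus no result particular to the lysosomal genes.

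With the replicate number as a block, 1 member was called for shHMGA1 against growing and 5 for RIS+shHMGA1 against RIS, and without the departing libraries the block left 16 for RIS against growing and 6 for RIS+shHMGA1 against RIS. The labels do not say whether samples with equal numbers belong together. Deviations of same-numbered samples had a mean correlation of 0.175, from −0.594 to 0.828, and 24 of 36 pairs exceeded 0.1. For samples with different numbers the mean was −0.0496. The departing libraries were kept in for both means, so a pairing is neither shown nor excluded.

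CTSK kept its call in 9 of 15 alternatives in either hairpin comparison (adjusted p 1.8e-07 to 0.025 untreated and 0.00017 to 0.052 treated), MANBA in 4 of 15 (4.7e-05 to 0.096), and TFEB in RIS+shHMGA1 against RIS in 6 of 15 (0.0015 to 0.092). Values near 0 changed sign, none of them called: GLB1 in hairpin cells had −0.047 without numbers 5 and 6, also −0.047 when the departing libraries were left out too, and from −0.014 (without replicate 6) to 0.088 without single numbers, CTSK in hairpin cells reached 0.13 without replicate 4, and MANBA in RIS against growing had −0.03 without the departing libraries, −0.002 with the block in addition, −0.11 without numbers 5 and 6, −0.25 without all of these, and from −0.056 (without replicate 6) to 0.121 without single numbers. The cause of these changes was not tested.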
